A study of Arabidopsis thaliana with 6 samples.

Results

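The transcriptome described here is that of developing wild-type seeds of Arabidopsis thaliana, measured by RNA sequencing in the 3 samples titled wild type Col-0. They were chosen by that title and are 3 of the 6 samples of the series. The series set wild-type seeds beside seeds of tt7-7, a mutant of the flavonoid gene TT7, and the mutant libraries enter no value given here. The Col-0 samples were seeds aged 8 days after pollination, of a standard laboratory accession with no mutation or treatment named in the labels, from which total RNA was taken and sequenced. The labels do not say whether the 3 samples came from separate plants, how many seeds were pooled, or how the plants were grown, so the spread between them may be biological or technical. The deposited values are RPKM, reads scaled by transcript length and by library size, for 16967 genes. The library totals used in that scaling lay between 13677094 and 20547689 reads, recovered from the steps of the RPKM values. They do not give the number of reads sequenced.

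An Arabidopsis seed holds an embryo, an endosperm that feeds it and a seed coat made by the mother plant. In mid development the embryo turns green, and it begins to fill with storage proteins and with oil held in oil bodies, while the seed coat makes flavonoid pigment and the polysaccharide mucilage. Storage protein genes are known targets of the embryo regulators LEC1, LEC2, FUS3 and ABI3, and the RY element, with the core CATGCA, is the site that B3 domain factors such as FUS3 and ABI3 are known to bind.

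Genes of storage proteins, of photosynthesis and of thiol reductases were among the most abundant transcripts, and a few genes held much of the signal. The 20 genes with the highest mean level held 18.8% of the summed RPKM. They were 4 of the 5 2S albumins, 3 cruciferins, 1 oleosin, 5 genes of photosynthesis, 2 thiol reductases of the GILT type, 3 lipid transfer type proteins, an early nodulin-like protein and a vacuolar processing enzyme. The highest gene of replicate 1 was the thiol reductase GILT (AT4G12960), and it was also the highest of replicate 2. In replicate 3 the highest was the storage albumin SESA3, which alone took 6.21% of the summed RPKM there. Without replicate 3, the mean of SESA3, CRU3, CRA1, SESA1, SESA4, OLEO1 and CRU2 was lower by over 1.5 times, and GILT had the highest mean, at 20824 RPKM.

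**Figure D1:**
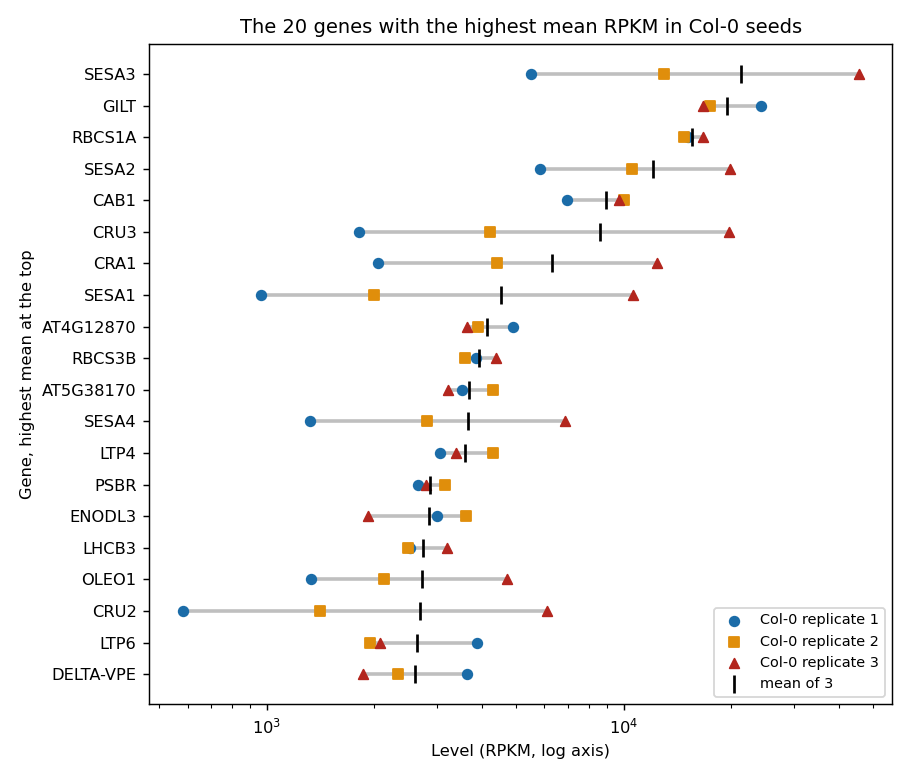
Level of the 20 genes with the highest mean RPKM, on a log axis, with a symbol for each of the 3 Col-0 replicates, a bar from the lowest to the highest and a tick at the mean. The storage genes and OLEO1 are spread widely with replicate 3 highest, such as SESA3 from 5503 to 45538 RPKM, while RBCS1A stays between 14752 and 16672 RPKM.

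The 2S albumins, small sulfur-rich storage proteins, held 2.00%, 4.02% and 11.5% of the summed RPKM in replicates 1, 2 and 3, a mean of 5.85% ± 5.02 (SD, n = 3). Without replicate 3 the mean was 3.01%. SESA3 (AT4G27160) was at 5503, 12962 and 45538 RPKM in replicates 1, 2 and 3, a mean of 21335 ± 21290 RPKM (SD, n = 3), and 9233 RPKM without replicate 3. It was the most abundant gene by mean over the 3 replicates and also one of the widest in spread, with its highest replicate 8.27 times its lowest. These values rested on 86843, 136158 and 675959 recovered reads, which put the counting error at 0.260% of the mean, far below the spread. SESA2 (AT4G27150) was at 5817, 10578 and 19921 RPKM. SESA1 (AT4G27140) was at 965, 2000 and 10618 RPKM, and SESA4 (AT4G27170) was at 1322, 2818 and 6847 RPKM. SESA5 (AT5G54740), which lies on another chromosome, was the lowest of the family at 162, 266 and 1578 RPKM. All 5 genes were highest in replicate 3 and lowest in replicate 1. The family's makeup differed between replicates as well, since SESA3 made 40.0%, 45.3% and 53.9% of its RPKM and SESA2 42.2%, 37.0% and 23.6%. SESA1 to SESA4 stand side by side on chromosome 4 and are similar in sequence, so reads may have been divided among them and the level of a single member is less certain than the family's sum.

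Cruciferins are the 12S globulins, the larger storage proteins of the seed. They held 0.651%, 1.43% and 5.32% of the summed RPKM, a mean of 2.47% ± 2.50 (SD, n = 3), and 1.04% without replicate 3. CRU3 (AT4G28520) was at 1815, 4225 and 19709 RPKM and CRA1 (AT5G44120), also a 12S globulin gene, at 2051, 4403 and 12390 RPKM. CRU2 (AT1G03880) was at 583, 1407 and 6100 RPKM. The last gene of the list, AT1G03890, a cupin family gene next to CRU2, was at 40.0, 149 and 816 RPKM, and its ratio of highest to lowest replicate, 20.4, was the largest of the 9 storage genes. Together the 9 storage protein genes took 2.65%, 5.45% and 16.8% of the summed RPKM, and 1.82%, 3.94% and 13.3% of the reads. In all 9 genes replicate 3 was highest, replicate 1 lowest and the difference over 2-fold. Of the 15615 genes with a mean of at least 2 RPKM, 165 had this pattern. In any order of replicates, 7.68% of the 15615 differed over 2-fold between the highest and lowest. In seeds sequenced whole, more or fewer cells of a type and more or less RNA per cell cannot be told apart.

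The promoters of leading storage genes are shown, and the promoters of an oleosin and of GILT are shown for comparison. Each is the 250 bases before the gene's start in the RefSeq annotation of TAIR10.1, 5′ to 3′ on the gene's strand, and the capitals mark the RY core or the G-box, whose letters are CACGTG, on either strand. The windows are chr4:13611546-13611795 on the plus strand for SESA3, chr4:13609091-13609340 on the plus strand for SESA2, chr4:14087306-14087555 on the plus strand for CRU3, chr5:17758337-17758586 on the minus strand for CRA1, chr4:12900180-12900429 on the plus strand for OLEO1 and chr4:7582989-7583238 on the plus strand for GILT.
SESA3: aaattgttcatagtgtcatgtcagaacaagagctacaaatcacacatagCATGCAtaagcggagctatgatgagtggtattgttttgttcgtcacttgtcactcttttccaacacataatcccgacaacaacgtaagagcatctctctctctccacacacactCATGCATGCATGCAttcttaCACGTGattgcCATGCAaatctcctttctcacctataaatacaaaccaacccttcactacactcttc
SESA2: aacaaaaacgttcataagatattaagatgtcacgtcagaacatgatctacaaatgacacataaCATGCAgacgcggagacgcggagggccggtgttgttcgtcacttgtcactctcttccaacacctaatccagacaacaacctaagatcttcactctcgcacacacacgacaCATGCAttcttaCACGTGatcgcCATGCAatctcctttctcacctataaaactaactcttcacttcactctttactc
CRU3: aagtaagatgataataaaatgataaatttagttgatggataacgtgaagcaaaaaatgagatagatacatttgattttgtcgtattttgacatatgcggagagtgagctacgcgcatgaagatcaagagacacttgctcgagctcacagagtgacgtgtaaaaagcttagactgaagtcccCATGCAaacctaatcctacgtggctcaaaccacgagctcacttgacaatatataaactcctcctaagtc
CRA1: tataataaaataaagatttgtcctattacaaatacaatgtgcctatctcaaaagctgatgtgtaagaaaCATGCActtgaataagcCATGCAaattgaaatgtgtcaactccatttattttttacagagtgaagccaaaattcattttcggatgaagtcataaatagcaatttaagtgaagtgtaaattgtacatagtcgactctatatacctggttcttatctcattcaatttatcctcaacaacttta
OLEO1: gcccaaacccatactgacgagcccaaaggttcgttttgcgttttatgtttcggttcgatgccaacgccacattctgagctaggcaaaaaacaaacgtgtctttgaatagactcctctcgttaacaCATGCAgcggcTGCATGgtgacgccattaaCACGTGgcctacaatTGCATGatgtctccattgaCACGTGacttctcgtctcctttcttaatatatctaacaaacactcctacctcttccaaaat
GILT: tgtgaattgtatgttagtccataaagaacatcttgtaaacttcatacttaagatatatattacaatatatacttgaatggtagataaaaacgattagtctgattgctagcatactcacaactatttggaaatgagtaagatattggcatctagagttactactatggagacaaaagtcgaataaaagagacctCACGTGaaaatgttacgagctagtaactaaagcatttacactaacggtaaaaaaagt

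The RY core, searched on both strands with overlapping matches counted separately, occurred in 8 of the 9 storage gene windows and 26 times in all. SESA3 held 7 matches, 5 of them in its longest run of capitals, and SESA4 held 6. CRU2 was the storage gene with no match. Among the 16597 nuclear coding genes of the table with such a window, 7.41% held the RY core. The G-box occurred once in each of the 5 2S albumin windows and in none of the 4 cruciferin windows, against 7.64% of all windows. In SESA3 and SESA2 the order of the last elements was alike, with an RY core, a G-box and another RY core within a short stretch near the gene start. Of the 13 oil body genes, 9 held the RY core and 5 the G-box. GILT held a G-box and no RY core. These are matches of letters, and binding was not measured. Whether they bear on the spread between replicates was not tested.

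Oil body proteins coat the droplets in which seeds keep triacylglycerol. The 13 genes held 0.537%, 0.864% and 1.38% of the summed RPKM, a mean of 0.926% ± 0.424 (SD, n = 3). OLEO1 (AT4G25140), the main oleosin, was at 1335, 2127 and 4708 RPKM, and its highest replicate was 3.53 times its lowest. OLEO2 (AT5G40420) was at 475, 980 and 1545 RPKM, and AT3G01570, another oleosin, at 573, 1003 and 1343 RPKM. OLEO3 (AT5G51210) did not share this order, being highest in replicate 2 at 1265 RPKM against 716 and 878 in replicates 1 and 3. Of the 13 genes 10 were highest in replicate 3 and 2 in replicate 2, and 8 differed over 2-fold. The remaining gene, RD20, a caleosin known from drought responses of leaves, was highest in replicate 1 at 256 RPKM, with 157 and 210 RPKM in replicates 2 and 3. After median-ratio scaling it was at 232, 156 and 233, so that replicates 1 and 3 were nearly equal, and 11 of the 13 genes were then highest in replicate 3. On the deposited scale 12.8% of the 15615 genes were highest in replicate 3, 25.9% in replicate 2, and 7.68% differed over 2-fold. After scaling, 5499 of the 15615 were highest in replicate 3.

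The enzymes that make fatty acids and oil were steadier than the proteins that coat it, with a median coefficient of variation (CV, the SD over the mean of the 3 replicates) of 14.5% against 39.7%. After median-ratio scaling these values were 13.2% and 48.6%. The 66 genes of the class held 1.24%, 1.39% and 1.10% of the summed RPKM, a mean of 1.25% ± 0.147 (SD, n = 3), and 3 of them differed over 2-fold. FAD2 (AT3G12120), the endoplasmic reticulum desaturase that makes linoleic acid, was the highest at 1163, 1265 and 1166 RPKM. The acyl carrier protein ACP2 was at 741, 768 and 551 RPKM, and ACP1 was at 472, 591 and 450 RPKM. KCS6, a condensing enzyme of very long chain fatty acids known for wax synthesis, was at 517, 583 and 471 RPKM. Replicate 2 was highest for 44 of the 66 genes and replicate 3 lowest for 43. Among all 15615 genes with a mean of at least 2 RPKM, 25.9% were highest in replicate 2 and 9944 lowest in replicate 3. The part of them that differed over 2-fold was 7.68%.

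Late embryogenesis abundant proteins, which accumulate before desiccation, were at lower levels and widely spread. The 32 genes held 0.254%, 0.274% and 0.353% of the summed RPKM. The highest, the dehydrin gene AT1G54410, was at 412, 577 and 468 RPKM, and ERD14 was at 303, 287 and 237 RPKM. The dehydrin gene LEA (AT2G21490) was at 39.2, 110 and 287 RPKM, highest in replicate 3, while ERD10 was at 177, 133 and 104 RPKM, highest in replicate 1. Of the 31 genes with a mean of at least 2 RPKM, 17 differed over 2-fold, 16 were highest in replicate 3 and 9 in replicate 1. For all 15615 such genes these shares were 7.68%, 12.8% and 61.4%.

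Genes of photosynthesis formed the largest named share by mean, although storage proteins exceeded it in replicate 3. The 12300 genes in no named class held more, at 44.3%, 40.6% and 35.6% of the summed RPKM. Among them were the ferredoxin genes FED A and FD1 and the reductase gene FNR1, so the photosynthesis share leaves these out. The 67 nuclear photosystem and light-harvesting genes held 7.39%, 8.30% and 8.43% of the summed RPKM, and the 19 genes of Rubisco and the Calvin cycle 4.31%, 3.90% and 4.25%. Together they took 12.2% ± 0.488 (SD, n = 3). How little this share differed between replicates depended on the denominator. With storage and oil body genes left out of the sum, a setting chosen after the data were seen, the photosystem genes held 7.64%, 8.86% and 10.3% and the Rubisco and Calvin cycle genes 4.45%, 4.16% and 5.20%, both highest in replicate 3. RBCS1A (AT1G67090), a small subunit of Rubisco, was at 15122, 14752 and 16672 RPKM, a mean of 15516 ± 1019 RPKM (SD, n = 3). It made 71.5%, 74.3% and 72.9% of the RPKM of the 4 small subunit genes. RBCS3B (AT5G38410) was at 3850, 3588 and 4376 RPKM, and RBCS2B was at 2000, 1346 and 1636 RPKM. RCA, which encodes the activase of Rubisco, was at 2317, 1787 and 2252 RPKM.

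CAB1 (AT1G29930), a light-harvesting protein of photosystem II, was at 6930, 10054 and 9703 RPKM, lowest in replicate 1. CAB2, its neighbour on chromosome 1, was at 2252, 2679 and 2898 RPKM. PSBR, a subunit of photosystem II, was at 2660, 3151 and 2797 RPKM, and LHCB3, another antenna protein, at 2515, 2495 and 3196 RPKM. CAB1, CAB2 and CAB3, and likewise RBCS2B, RBCS3B and RBCS1B, are nearly identical neighbours, so the division of reads within each trio is uncertain. Of the 67 genes, LHB1B1 was the only one that differed over 2-fold, at 21.5, 57.5 and 95.2 RPKM, against 7.68% of all genes. The median CV was 9.86% for the photosystem genes and 7.58% for the Calvin cycle genes, against 15.2% over all genes with a mean of at least 2 RPKM. These values hold for the deposited scale. After median-ratio scaling, which sets the median gene equal between replicates, the photosystem genes had a median CV of 18.1% and lay above the 11.9% of all genes, and the Calvin cycle genes had 10.4%. Replicate 3 was highest for 42 of the 67 photosystem genes on the deposited scale and for 59 after scaling. For the 19 Rubisco and Calvin cycle genes these counts were 6 and 17, and for all 15615 genes 1992 and 5499.

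**Figure D2:**
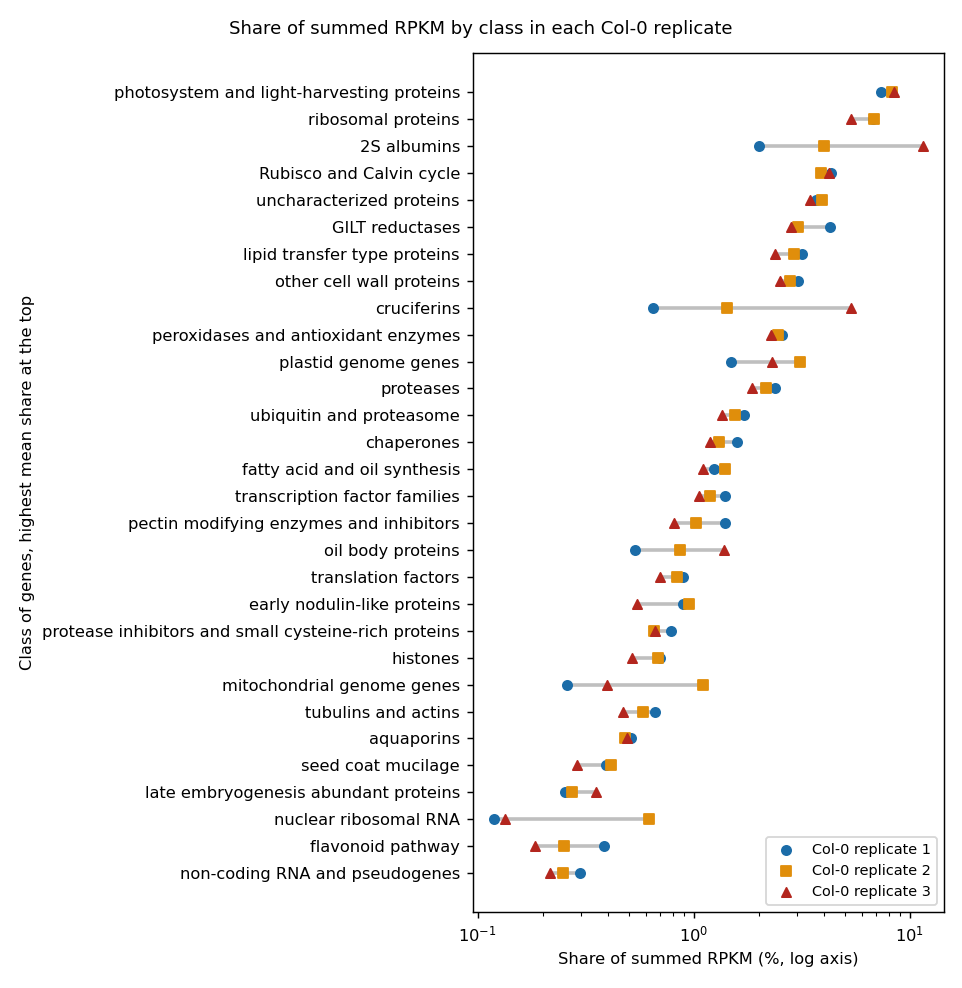
Share of the summed RPKM, in percent on a log axis, of 30 classes of genes in each of the 3 Col-0 replicates, with a bar from the lowest to the highest replicate. The photosystem genes lie between 7.39% and 8.43%, whereas 2S albumins run from 2.00% to 11.5% and cruciferins from 0.651% to 5.32%. The 12300 genes in no named class are not drawn.

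GILT-type thiol reductases, named after the interferon-inducible lysosomal enzyme of animals that reduces protein disulfides, held 4.29%, 3.05% and 2.83% of the summed RPKM in 4 genes. GILT (AT4G12960) was at 24225, 17423 and 16662 RPKM, a mean of 19437 ± 4164 RPKM (SD, n = 3), the second highest gene by mean. Its relative AT4G12870 was at 4885, 3906 and 3643 RPKM. The other members, AT4G12890 and AT4G12900, had means of 383 and 54.2 RPKM. GILT made between 80.1% and 81.9% of the family's RPKM in every replicate, so the family's makeup was steadier than that of the 2S albumins.

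Lipid transfer type proteins, small secreted proteins with a lipid-binding pocket, held 3.18%, 2.93% and 2.38% of the summed RPKM in 48 genes. AT5G38170 was at 3523, 4296 and 3210 RPKM and its neighbour AT5G38160 at 2957, 2704 and 1922 RPKM. LTP4 (AT5G59310) was at 3067, 4301 and 3395 RPKM, and LTP6 (AT3G08770) was at 3879, 1948 and 2077 RPKM. LTP6 was thus highest in replicate 1, whereas AT5G38170 and LTP4 were highest in replicate 2. ENODL3 (AT4G28365), an early nodulin-like protein, was at 3003, 3606 and 1919 RPKM. DELTA-VPE (AT3G20210), a vacuolar processing enzyme known from the inner layers of the seed coat, was at 3640, 2329 and 1862 RPKM. Among inhibitors of pectin methylesterase or invertase, AT1G56100 was at 2563, 1100 and 924 RPKM, and AT4G15750 was at 1595, 689 and 511 RPKM. Both were highest in replicate 1 and differed over 2-fold.

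The flavonoid pathway, which makes the proanthocyanidin pigment of the seed coat, held 0.384%, 0.251% and 0.185% of the summed RPKM in the 13 genes measured of 14 listed. TT6 was not analysed here. TT4 (AT5G13930), the chalcone synthase that opens the pathway, was the highest at 819, 549 and 448 RPKM. TT7, the flavonoid 3′-hydroxylase that is mutated in the other group of the series, was at 499, 272 and 240 RPKM, and TT5, the chalcone isomerase, was at 195, 87.6 and 89.4 RPKM. DFR, the dihydroflavonol reductase, was at 193, 71.3 and 45.9 RPKM. LDOX, the next oxygenase, was at 201, 82.2 and 43.0 RPKM, and BAN, the anthocyanidin reductase, was at 127, 67.3 and 39.8 RPKM. TT10 (AT5G48100), a laccase that browns the finished pigment, was at 468, 572 and 392 RPKM and had another order, with replicate 2 highest. Of the 13 genes 11 were highest in replicate 1, 12 were lowest in replicate 3 and 8 differed over 2-fold. Replicate 1 remained highest for the same number, 11, after median-ratio scaling. Over all 15615 genes 61.4% were highest in replicate 1, 9944 were lowest in replicate 3 and 7.68% differed over 2-fold. After scaling, 5293 of them were highest in replicate 1.

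Mucilage genes of the seed coat epidermis held 0.394%, 0.414% and 0.289% of the summed RPKM in 15 genes. Among these 1 differed over 2-fold, against 7.68% of all genes with a mean of at least 2 RPKM. SBT1.7 (AT5G67360), a subtilase needed for mucilage release, was at 1472, 1564 and 1103 RPKM. BXL1, a xylosidase that trims cell wall polysaccharide, was at 371, 419 and 371 RPKM, and the peroxidase PER36 was at 348, 336 and 204 RPKM. MUCI10, a galactosyltransferase that decorates mannan, was at 65.7, 104 and 61.6 RPKM. Replicate 3 was lowest for 11 of the 15 genes, and replicate 2 was highest for 9 on the deposited scale and for 12 after median-ratio scaling. Across all 15615 genes replicate 3 was lowest for 9944, and replicate 2 was highest for 4038 and, after scaling, for 4823.

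**Figure D3:**
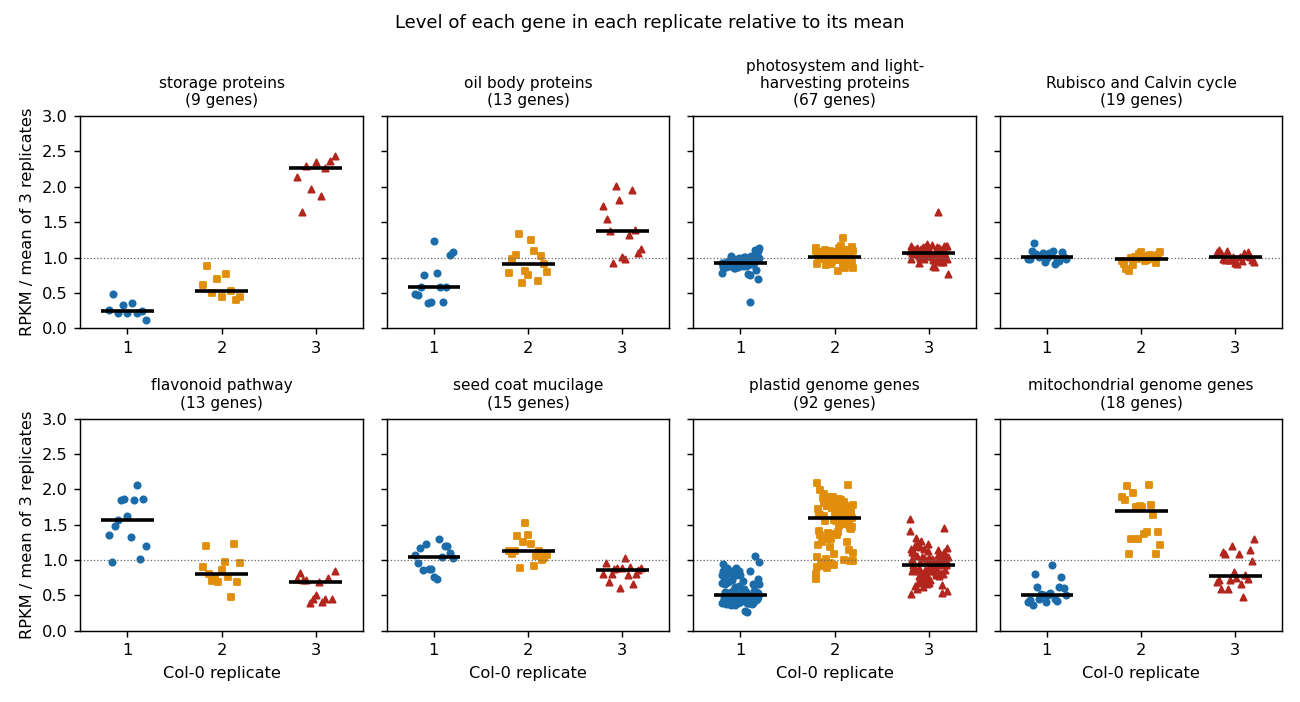
Each point is a gene with a mean of at least 2 RPKM, drawn as its RPKM in a Col-0 replicate divided by its mean over the 3 replicates, with a bar at the median of each set of genes. The 9 storage genes are all highest in replicate 3, 11 of 13 flavonoid genes are highest in replicate 1, 74 of 92 plastid genome genes are highest in replicate 2, and the Rubisco and Calvin cycle genes lie close to 1 on this deposited scale. Over all 15615 genes 61.4%, 25.9% and 12.8% are highest in replicates 1, 2 and 3.

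Ribosomal proteins, the machinery of protein synthesis, held 6.73%, 6.87% and 5.37% of the summed RPKM in 345 genes. This share was made of many genes at moderate level rather than of a few, since the highest, AT1G67430 of the L22p/L17e family, was at 751, 780 and 650 RPKM. Of the 343 genes with a mean of at least 2 RPKM, 7 differed over 2-fold, against 7.68% of all 15615 genes. Replicate 3 was lowest for 278 of the 343 and for 9944 of the 15615. In the promoter windows of ribosomal protein genes TGGGCC, the core of site II elements, searched on both strands, occurred in 44.1%, against 17.8% of all windows. AAACCCTA, the telo box, occurred in 14.2%, against 3.54% of all windows. Translation factors held 0.810% ± 0.102 (SD, n = 3), led by AT5G60390, an elongation factor gene of the Tu family, at 1499, 1528 and 1259 RPKM.

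Genes of the organelle genomes, given by identifier because the reference does not annotate them under these, were mostly highest in replicate 2. The 92 plastid genes held 1.49%, 3.12% and 2.31% of the summed RPKM, and the 18 mitochondrial genes 0.259%, 1.11% and 0.397%. The mitochondrial mean was 0.588%, or 0.328% without replicate 2. Replicate 2 was highest for 74 of the 92 and for 15 of the 18, against 25.9% of all 15615 genes. Replicate 3 was highest for the other 18 plastid genes. Of the 4 plastid genes with the highest means, ATCG00020 was highest in replicate 2, at 311, 1664 and 409 RPKM. The rest were highest in replicate 3. ATCG00220 was at 1129, 1227 and 2638 RPKM, ATCG01020 at 930, 941 and 1659 RPKM and ATCG00790 at 734, 707 and 901 RPKM. ATMG00020 was at 691, 3184 and 1157 RPKM and ATMG00030 was at 726, 3031 and 1171 RPKM. The 18S ribosomal RNA gene AT3G41768 moved alongside, at 808, 4369 and 969 RPKM. Whether polyadenylated RNA was selected or ribosomal RNA depleted is not given in the sources used here, and the part of RNA selection in these values was not tested.

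Markers of all 3 seed compartments were detected. Of the embryo markers, 7 of 7 lay above 2 RPKM in all 3 replicates, with summed levels of 303, 357 and 277 RPKM. L1L was at 98.0, 163 and 124 RPKM and LEC1, its close relative among the NF-Y regulators of embryo development, at 135, 115 and 88.4 RPKM. FUS3 was at 24.3, 30.7 and 23.7 RPKM, ABI3 at 10.9, 15.8 and 15.9 RPKM and LEC2 at 9.90, 7.05 and 5.07 RPKM. LEC1 and LEC2 were highest in replicate 1, as were 61.4% of the 15615 genes with a mean of at least 2 RPKM. L1L and FUS3 were highest in replicate 2, and ABI3 was nearly equal in replicates 2 and 3. Replicates 1, 2 and 3 were highest for 3, 3 and 1 of the 7 embryo markers. Of the endosperm markers, 6 of 8 were in the table and 4 lay above 2 RPKM in all replicates, with summed levels of 184, 152 and 100 RPKM. The sucrose carrier SUC5 had the highest mean of them, at 81.5, 56.9 and 36.5 RPKM. ALE1, a subtilase of embryo surface formation, was at 49.9, 58.1 and 40.9 RPKM, above SUC5 in replicates 2 and 3. ZOU, a transcription factor of the same process, was at 38.3, 31.1 and 17.4 RPKM. MEA and AGL62 were not analysed here. Of the seed coat markers, 11 of 11 were in the table and 10 lay above 2 RPKM in all replicates, with summed levels of 1171, 1206 and 777 RPKM.

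Markers of tissues that a seed sample could carry along were measured as well. Of the fruit wall markers, 4 of 5 were in the table and 4 lay above 2 RPKM in all replicates. Their summed levels were 57.5, 57.9 and 50.3 RPKM. SHP2 and SHP1, which ovules also express, made part of that sum, FUL was at 16.9, 17.7 and 19.9 RPKM and IND at 2.54, 3.10 and 4.02 RPKM. The 4 pollen markers all lay above 2 RPKM in all replicates and summed to 34.2, 35.7 and 38.1 RPKM. Of the 2 petal and stamen markers 1 was in the table, AP3, at 47.8, 34.3 and 31.4 RPKM. Of the 3 guard cell markers 2 were in the table. MYB60 was at 25.9, 22.0 and 17.0 RPKM and KAT1 at 2.45, 1.82 and 1.76 RPKM. The petal and stamen marker PI and the guard cell marker FAMA were not analysed here. None of the 3 root markers was analysed here. The part of other tissues in the results was not tested.

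The concentration of the transcriptome on few genes differed between replicates. A count of 553 genes held 50% of the summed RPKM in replicate 1, 431 in replicate 2 and 252 in replicate 3, a mean of 412 ± 151 genes (SD, n = 3). The 100 genes with the highest mean held 27.9%, 31.2% and 40.4%, and 74 genes were among the 100 highest of every replicate. With the 22 storage and oil body genes left out of the sum, a choice made after the data were seen, the 100 most abundant genes held 27.9% ± 1.15 (SD, n = 3) and 545 ± 45.8 genes (SD, n = 3) held 50%. The SD of the first value was 6.47 with these genes included and that of the second 151. These 2 measures thus lay closer together without the storage and oil body genes, which did not hold for every class, since the SD of the photosystem share rose from 0.565 to 1.34.

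**Figure D4:**
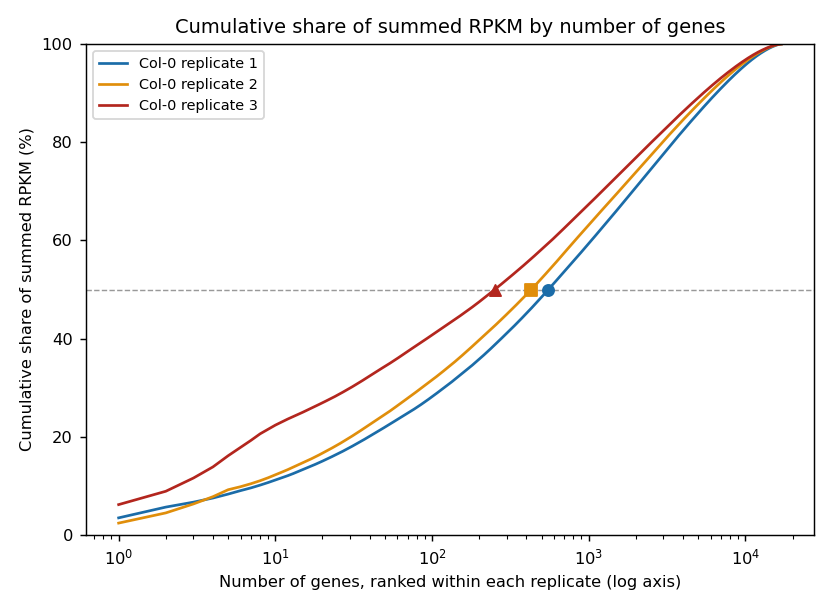
Cumulative share of the summed RPKM, in percent, against the number of genes ranked within each Col-0 replicate on a log axis, with a symbol where each curve passes 50%. The curve of replicate 3 rises first and passes at 252 genes, against 431 and 553 for replicates 2 and 1.

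The most abundant genes by RPKM had short transcripts and often lay next to each other. RPKM divides reads by transcript length, so the ranking itself depends on length. The lengths of the genes highest by reads were not examined. The 100 highest nuclear coding genes had a median transcript length of 1174.5 bases against 1729 for the 16598 nuclear coding genes of the table, and 41.0% against 14.1% were under 1000 bases. Of these 100 genes 24 had another of the 100 within 5 genes on the chromosome. In each further 100 genes by rank, down to rank 1000, the number with a neighbour from the same 100 was 2 to 7. The neighbours were mostly members of 1 family, such as SESA1 to SESA4, CAB1 to CAB3, RBCS2B with RBCS3B, LTP3 with LTP4 and AT5G38160 with AT5G38170. OLEO1 and FSD1, an iron superoxide dismutase, lay 4 genes apart without being of 1 family.

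Over the 15615 genes with a mean of at least 2 RPKM, the median CV between replicates was 15.2%, against 5.50% that counting error alone gives at the recovered read numbers. The median CV was 17.2% for the 7241 genes between 2 and 10 RPKM, 13.6% between 10 and 100, 14.2% between 100 and 1000, and 14.6% for the 67 genes at 1000 RPKM or more. Counting error fell from 7.98% to 0.512% over these bands, so for abundant genes the spread lay almost wholly outside counting error. The highest replicate was over 2-fold its lowest for 1200 genes, or 7.68%. Fewer samples give a smaller range by construction, and the count was 360, 744 and 646 without replicates 1, 2 and 3 in turn. Of the 67 most abundant genes 15 did so, or 22.4%. Pearson correlations of log2 levels over genes, which are no replicates of one another, were 0.978, 0.973 and 0.981 for replicates 1 and 2, 1 and 3, and 2 and 3.

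**Figure D5:**
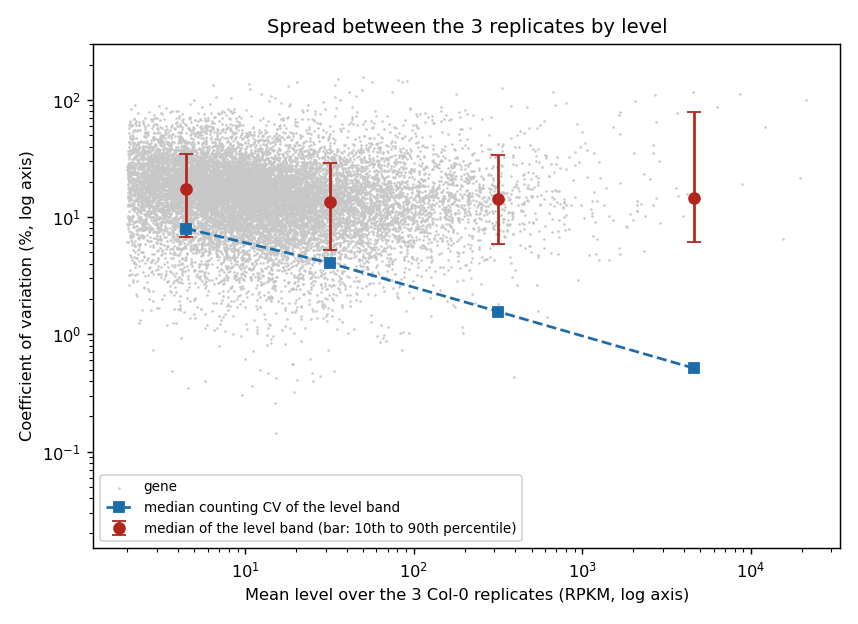
Coefficient of variation between the 3 Col-0 replicates in percent against mean level in RPKM, both on log axes, with a grey point for each of 15615 genes, red medians with bars from the 10th to the 90th percentile in 4 level bands, and blue medians of the counting error. The red medians stay between 13.6% and 17.2% while the counting error falls to 0.512%.

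A general shift lay under these values. Of the 15615 genes 61.4% were highest in replicate 1, and 9944 were lowest in replicate 3. The median ratio was 0.821 for replicate 3 over replicate 1, 0.916 for 2 over 1 and 0.894 for 3 over 2. RPKM is a share of the library, so a larger share for some genes leaves less for the others, and how much of the shift this makes was not tested. After median-ratio scaling 5293, 4823 and 5499 genes were highest in replicates 1, 2 and 3, and the count over 2-fold became 1021. Small differences between replicates can thus depend on the scale. After scaling, replicates 1, 2 and 3 were highest for 40, 230 and 73 of the 343 ribosomal genes. For the 15 mucilage genes these counts were 3, 12 and 0. The storage genes were highest in replicate 3, and the flavonoid genes mostly in replicate 1, on both scales.

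The 10 genes with the largest CV among those with a mean of at least 10 RPKM were all highest in replicate 3. Of all 15615 genes with a mean of at least 2 RPKM, 12.8% were highest in replicate 3. Among the 1200 genes that differed over 2-fold, replicates 1, 2 and 3 were highest for 736, 202 and 262. AT1G14950, of a family of polyketide cyclase and lipid transport proteins, led with 2.82, 7.01 and 140 RPKM. The late embryogenesis abundant genes AT3G02480 and AT3G15670 were at 7.43, 17.7 and 217 RPKM and at 4.63, 25.2 and 224 RPKM. The glycine-rich protein gene AT2G05580 was at 5.37, 23.3 and 243 RPKM, and CYP78A9, a cytochrome P450 known for effects on seed size, was at 4.03, 3.43 and 53.4 RPKM. The others were AT1G19900, AT1G05510, AT4G38080, AT1G54870 and AT5G55750.

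Among the 10 steadiest genes with a mean of at least 100 RPKM were several of chloroplast proteins. FNR1, the reductase that passes electrons from ferredoxin to NADP, was at 397, 395 and 394 RPKM, a CV of 0.431%. The thioredoxin TRX-M4 was at 193, 197 and 195 RPKM, and the chloroplast chaperone CLPC1 was at 190, 195 and 192 RPKM. PSBQA, of photosystem II, was at 610, 609 and 624 RPKM, and FD1, a ferredoxin, at 555, 550 and 538 RPKM. The calcium sensor CaS, EMB3137, SSR16, TPX1 and AT2G23090 completed the 10. They were chosen for low spread on the deposited scale, and after median-ratio scaling a gene at equal RPKM is highest in replicate 3.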

How the data were processed

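Developing seeds of Col-0 were sequenced in 3 samples, grouped by the genotype in their titles. The authors deposited RPKM values for 16967 genes in 6 columns, written with decimal commas, and the 3 Col-0 columns were used. The submitters' processing notes name cutadapt, FastQC, HISAT2, HTSeq, DESeq2 and the build TAIR10, without role, order or version; the sources used here do not give strandedness, the counting rule or RNA selection. Of the genes, 14989 lay above 2 RPKM in all 3 Col-0 samples. RPKM steps of 1 read were used to recover reads: with the longest RefSeq transcript as length, values came out whole within 0.02 for 16855 genes (99.3%), and the lengths of the other 112 were found by search within 0.002. Library totals used in the RPKM scaling were 20547689, 13677094 and 19327827 reads, of which the table holds 99.4%, 99.5% and 99.3%. The recovery was tested on simulated data. Counting errors cover counting only.

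RefSeq TAIR10.1 gave names, lengths and promoters for 16857 genes; the 92 plastid and 18 mitochondrial genes did not match. The deposited table holds no coordinates. Genes fell into 31 classes by hand-written lists, identifier or RefSeq product name, and a share is a class's part of a column's summed RPKM. Of the listed genes, 13 of 14 flavonoid, 7 of 8 oil body and 7 of 10 late embryogenesis abundant genes were in the table, and the others of these lists were not analysed here. With 1 group there was no test. A count over 2-fold compares the highest with the lowest replicate. A chi-square of recovered reads between replicates gave 54.8 to 163 per degree of freedom, so none was a duplicate of another.

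Named genes are the 20 with the highest mean, the 4 highest of each class or marker list, the 10 with the largest CV (mean of at least 10 RPKM), the 10 with the smallest (mean of at least 100 RPKM), and TT7. Outside this rule, SESA5, DFR, LDOX, LHB1B1, RD20, LEC2 and the promoters shown were chosen after their values were seen. Members and lists were chosen with earlier results of these data known. The scripts ran in Python 3.11.15 with pandas 2.3.3, numpy 2.4.6, matplotlib 3.10.9 and scipy 1.17.1. Alternatives were recovered reads, organelle genes left out, hand lists only, other filters and pseudocounts, median-ratio scaling and each replicate left out.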

Additional observations from a re-analysis of the deposited data

How the results depend on the processing

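Apart from leaving out a replicate, 38 of 49 alternative values for the class shares, the concentration on few genes and the spread lay within the SD between replicates or, for counts and the median CV, within 1.5 times. The SD of the storage and oil body classes is wide, so this says little of them. Taken over recovered reads instead of RPKM, which weights long transcripts more, the mean shares became 3.17% for 2S albumins, from 5.85%, 3.17% for cruciferins, from 2.47%, 0.612% for oil body proteins, from 0.926%, and 6.70% for photosystem genes, 2.58% for GILT reductases, 1.44% for lipid transfer type proteins, 4.64% for ribosomal proteins, 1.50% for fatty acid and oil synthesis, 0.676% for mucilage and 0.905% for plastid genome genes. With hand-written lists only, fatty acid and oil synthesis became 0.924%. With storage and oil body genes left out of the sum, a setting added after the data were seen, photosystem genes became 8.93% and Rubisco and the Calvin cycle 4.60%. With a mean of at least 10 RPKM, 527 genes differed over 2-fold.

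Leaving out each replicate in turn, the mean share ranged from 3.01% to 7.77% for 2S albumins, 1.04% to 3.38% for cruciferins, 0.700% to 1.12% for oil body proteins, 7.85% to 8.37% for photosystem genes, 4.07% to 4.28% for Rubisco and the Calvin cycle, 2.94% to 3.67% for GILT reductases and 2.65% to 3.05% for lipid transfer type proteins. It ranged from 6.05% to 6.80% for ribosomal proteins, 1.17% to 1.32% for fatty acid and oil synthesis, 0.342% to 0.404% for mucilage, 0.218% to 0.318% for flavonoid genes, 1.90% to 2.71% for plastid and 0.328% to 0.753% for mitochondrial genome genes. The genes holding 50% numbered 341.5 to 492, the 100 most abundant genes held 29.6% to 35.9%, the median CV was 10.6% to 16.4%, and 360 to 744 genes differed over 2-fold. With 3 samples, leaving out 1 cannot move a mean by more than the SD, yet without replicate 3 the mean was 9233 RPKM for SESA3, 3020 for CRU3, 3227 for CRA1, 1482 for SESA1, 2070 for SESA4, 1731 for OLEO1 and 995 for CRU2, each over 1.5 times lower. No paired analysis was possible because the values describe 1 group and come from no test. With 3 samples, each mean rests on few libraries; genes low in both groups of the series were not analysed here.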

Other observations

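In the class of transcription factor families, the highest gene was EBP, an ethylene-responsive element binding protein, at 213, 229 and 206 RPKM, followed in that class by L1L, the bHLH factor ILR3 at 99.0, 91.9 and 84.1 RPKM and the MADS box factor SEP3 at 101, 86.3 and 84.5 RPKM. LEC1, whose mean lay above those of ILR3 and SEP3, was classed with the histones by its RefSeq product name and is not in these values. The 758 genes of the class held 1.22% ± 0.170 (SD, n = 3) of the summed RPKM. Of the 687 with a mean of at least 2 RPKM, 82 differed over 2-fold, against 7.68% of all 15615 genes. GL2, a homeodomain factor known from mucilage production in the seed coat, was at 71.5, 78.6 and 31.2 RPKM, lowest in replicate 3. HDG3, a homeodomain factor of the same family, was at 93.3, 45.5 and 30.7 RPKM. GL2 and HDG3 were chosen after their values were seen.

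Genes without a known product held 3.68% ± 0.240 (SD, n = 3) of the summed RPKM in 990 genes, and several of the highest lay close together on chromosome 1. AT1G62060 was at 1349, 2783 and 1960 RPKM, AT1G62070 at 765, 1512 and 916 RPKM and AT1G62080 at 588, 1041 and 1480 RPKM. AT1G62000 was at 555, 949 and 1200 RPKM, AT1G62220 at 334, 895 and 387 RPKM and AT1G62225 at 150, 262 and 428 RPKM. All 6 were lowest in replicate 1, and the highest was replicate 2 for 3 of them and replicate 3 for the other 3. Of all 15615 genes with a mean of at least 2 RPKM, 2173 were lowest in replicate 1. AT1G62333, also on chromosome 1, had another order, at 220, 182 and 120 RPKM. The 6 genes and AT1G62333 were chosen after their values were seen. Among non-coding genes AT2G19796 was the highest at 404, 230 and 211 RPKM. Strandedness is not given in the sources used here, so reads from either strand at a non-coding gene cannot be told apart.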
